A study of Mus musculus with 3 samples.

Results

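Wide regions at a single coding gene end are places where the chromatin tagged through Flag-Bcl11a stretched over 1500 bp or more around the start or finish of 1 protein-coding gene. Peaks of the 3 libraries were joined wherever they overlapped by 1 bp or more, and a region was kept, and called reproducible, when it held a peak of each library. Its summit was the mean position of the summits of each library's widest peak, and the region was a member when its joined width reached 1500 bp and its summit lay within 1 kb of an outer end of exactly 1 protein-coding gene. Of 22987 reproducible regions, 7123 had such a single gene, and 386 of these (5.42%) were wide enough. The other 6737, under 1500 bp, are called narrower regions below. Width and position chose the members, so these are given as descriptions.

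The libraries came from LSK cells, a bone marrow fraction sorted as lacking mature lineage markers and carrying Sca-1 and Kit, which holds blood stem cells and early progenitors. The mice carried a 3xFlag tag knocked into the N-terminus of Bcl11a, although each sample's genotype label reads wildtype, and age, sex and strain are not given in the labels. All 3 libraries are replicates of this 1 group, no untagged or input library was analysed here, and nothing says that they came from separate animals, so SDs measure only the spread between these libraries, which may be technical. Binding of Bcl11a and cutting by the transposase in open chromatin cannot be told apart in these libraries. They held 38731, 36459 and 43462 peaks on the autosomes, X and Y, with a background of 1.07, 1.41 and 1.95 fragments per base in libraries 1, 2 and 3, and 149, 404 and 574 of those peaks were 1500 bp or wider. Of 8 LSK markers, 4 (Kit, Cd34, Flt3 and Procr) had the summit of a reproducible region within 1 kb of an end. The others, Ly6a (Sca-1), Slamf1, Mecom and Hlf, did not. Of genes of mature lineages or of leukocytes in general 0 of 7 had one, and of red cell genes 0 of 4. Of genes of stroma and endothelium 1 of 6 (Kdr) had one. These few markers do not stand for whole lineages: on the fuller lists 10 of 30 lymphoid, 11 of 30 myeloid and 12 of 32 erythroid and megakaryocyte genes had one, against 42.8% of all protein-coding genes.

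Bcl11a is a zinc finger transcriptional repressor that works through corepressor complexes and is known for silencing fetal globin genes and for a need in lymphoid and stem cell development. CUT&Tag brings a transposase to an antibody, here against the tag, and the transposase cuts DNA near the bound protein. Most mammalian promoters lie in CpG islands, stretches rich in G, C and undepleted CpG, where open chromatin can extend over the first exon and intron. In other assays, unusually broad domains of active chromatin at promoters are known to mark genes of cell identity.

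The promoters at the widest members are shown first, since the sequence under a region was not used to choose it. RefSeq promoter windows (GRCm38.p6, the assembly behind mm10) run from 250 bases before an annotated start to 50 bases from it, and the start nearest the summit was taken. They were matched for 315 of the 386 members. The sequences below belong to the 5 widest members that had one, and to the 3 widest others on the gene lists used below. Capitals mark every match, on either strand, to 10 searched motifs, with overlapping matches run together. These were the BCL11A motif TGACCA, the GC box GGGCGG, the ETS octamer CCGGAAGT, the CCAAT box, the cyclic AMP response element (CRE) TGACGTCA, and the NRF1 palindrome, which is GCGCA followed by its own reverse complement. The others were the GATA motif AGATAA, the RUNX motif TGTGGT, the TATA box as TATAAA, and the E-box in the form CACGTG.
Bbc3: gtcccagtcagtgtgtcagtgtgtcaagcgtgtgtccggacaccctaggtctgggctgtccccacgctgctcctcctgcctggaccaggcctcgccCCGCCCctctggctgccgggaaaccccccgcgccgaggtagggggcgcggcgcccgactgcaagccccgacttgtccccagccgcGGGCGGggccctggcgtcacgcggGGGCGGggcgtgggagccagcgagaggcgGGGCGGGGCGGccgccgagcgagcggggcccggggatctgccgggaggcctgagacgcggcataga
Tagln2: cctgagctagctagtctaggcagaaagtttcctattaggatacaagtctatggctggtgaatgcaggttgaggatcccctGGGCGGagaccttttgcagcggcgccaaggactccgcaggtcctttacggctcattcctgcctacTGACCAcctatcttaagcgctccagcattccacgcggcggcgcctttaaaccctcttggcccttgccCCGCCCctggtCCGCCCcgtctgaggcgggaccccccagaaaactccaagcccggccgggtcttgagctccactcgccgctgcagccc
Tpd52l2: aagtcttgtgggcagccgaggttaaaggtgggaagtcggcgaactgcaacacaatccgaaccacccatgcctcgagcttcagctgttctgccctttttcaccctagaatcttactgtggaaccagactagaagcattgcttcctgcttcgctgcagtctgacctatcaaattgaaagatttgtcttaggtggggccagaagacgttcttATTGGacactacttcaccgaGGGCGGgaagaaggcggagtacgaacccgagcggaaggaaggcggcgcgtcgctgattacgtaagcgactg
Traf3: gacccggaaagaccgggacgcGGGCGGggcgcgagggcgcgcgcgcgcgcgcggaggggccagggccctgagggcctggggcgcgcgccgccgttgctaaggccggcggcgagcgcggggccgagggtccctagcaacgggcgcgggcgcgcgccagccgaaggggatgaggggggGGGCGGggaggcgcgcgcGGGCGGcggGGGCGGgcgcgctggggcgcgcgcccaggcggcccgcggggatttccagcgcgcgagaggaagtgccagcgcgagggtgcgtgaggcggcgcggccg
Tent5a: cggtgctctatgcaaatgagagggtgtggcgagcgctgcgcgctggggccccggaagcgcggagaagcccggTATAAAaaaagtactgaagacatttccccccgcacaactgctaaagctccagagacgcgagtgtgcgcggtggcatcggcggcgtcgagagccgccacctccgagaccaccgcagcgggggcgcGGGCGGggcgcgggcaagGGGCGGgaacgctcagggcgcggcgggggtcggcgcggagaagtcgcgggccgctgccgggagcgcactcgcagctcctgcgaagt
Ifngr2: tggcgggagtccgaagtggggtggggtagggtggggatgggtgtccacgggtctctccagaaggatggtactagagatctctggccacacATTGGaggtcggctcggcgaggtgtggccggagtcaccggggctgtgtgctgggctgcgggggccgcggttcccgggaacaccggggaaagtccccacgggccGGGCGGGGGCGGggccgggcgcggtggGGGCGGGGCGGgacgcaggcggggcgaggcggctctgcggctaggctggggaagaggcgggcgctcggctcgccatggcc
Hhex: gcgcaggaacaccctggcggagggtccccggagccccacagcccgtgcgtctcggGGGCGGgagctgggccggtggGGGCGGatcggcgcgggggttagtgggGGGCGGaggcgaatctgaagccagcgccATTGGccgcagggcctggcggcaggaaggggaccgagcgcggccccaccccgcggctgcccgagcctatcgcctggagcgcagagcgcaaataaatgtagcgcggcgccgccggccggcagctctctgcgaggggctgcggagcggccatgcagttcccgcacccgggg
Gadd45b: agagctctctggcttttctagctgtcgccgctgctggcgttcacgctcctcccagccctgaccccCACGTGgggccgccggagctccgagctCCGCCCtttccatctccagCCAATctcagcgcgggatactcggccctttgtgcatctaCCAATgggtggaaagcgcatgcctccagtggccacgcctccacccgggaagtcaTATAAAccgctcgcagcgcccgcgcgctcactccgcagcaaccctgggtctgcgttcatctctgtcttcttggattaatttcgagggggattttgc
In each of the 8, the annotated start lies inside the member region. Bbc3 lies at chr7:16309333-16309632 (plus strand), Tagln2 at chr1:172499996-172500295 (plus), Tpd52l2 at chr2:181496892-181497191 (plus) and Traf3 at chr12:111166120-111166419 (plus). Tent5a lies at chr9:85327101-85327400 (minus), Ifngr2 at chr16:91546809-91547108 (plus), Hhex at chr19:37434591-37434890 (plus) and Gadd45b at chr10:80929841-80930140 (plus). GC boxes were the commonest capitals, with 5 in Bbc3, 4 each in Traf3 and Ifngr2, and 3 each in Tagln2 and Hhex. TGACCA stood in 1 of the 8 windows, that of Tagln2.

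Promoters matched to wide regions, called under them below, were richer in G and C than those matched to narrower regions. Their median G+C content was 68.0% in 315 genes with a wide region, 62.3% in 5398 genes with a narrower one and 56.3% at 1 start per gene of all 17492 protein-coding genes in the table. The CpG ratio, the observed count of CpG over that expected from the C and G content, had a median of 0.834, 0.781 and 0.576 in the same sets. An annotated start lay inside the region in 296 of the 315, and for the others the nearest start outside it was used. No annotated start lay in 84 of all 386 wide and 2119 of all 6737 narrower regions, while 71 and 1339 had no strand given. Windows off the region were thus more frequent among narrower ones, and their part in these differences was not tested. The ratio was 0.6 or more in 82.9% of genes with a wide region, 76.5% of those with a narrower one and 48.3% of all. With width taken in each library alone (a single peak of 1500 bp or more against a shorter one), the difference in median CpG ratio was 0.06, 0.01 and 0.02 in libraries 1, 2 and 3, so its sign was shared but its size was not. A GC box was present in 81.9% of promoters under wide regions, against 70.2% under narrower ones and 46.3% of all. The ETS octamer went the other way, with 3.81% under wide regions, 7.58% under narrower ones and 5.29% of all. The BCL11A letters TGACCA were in 7.62% of windows under wide regions, 11.5% under narrower ones and 12.5% of all. CCAAT stood in 31.4%, 39.8% and 39.0%, and TGTGGT in 9.52%, 12.5% and 15.1% of the same sets. AGATAA stood in 5.71%, 5.35% and 9.96%, TATAAA in 6.03%, 6.28% and 13.3%, and CACGTG in 10.2%, 10.7% and 7.90%. The CRE was found in 1.59%, 3.46% and 2.34%, and the NRF1 motif in 0.63%, 2.32% and 1.32%. These shares are descriptions over genes, which are not replicates, and base composition alone changes how often each set of letters occurs.

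The joined width of the 386 members ran from 1500 to 2770 bp, with a median of 1696 bp and quartiles of 1582 and 1863 bp. Members under 1600 bp numbered 115, and 191 regions at 1 coding gene end lay between 1400 bp and the threshold. The last regions inside were those of Galnt10 (1500 bp), Dock9 and Pld1 (1501 bp each). The first outside were those of Inafm2, Pias3 and Rdm1, 1 to 2 bp short of it. The wide regions are thus the tail of a continuous spread, as the plot of width against height shows.

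**Figure D1:**
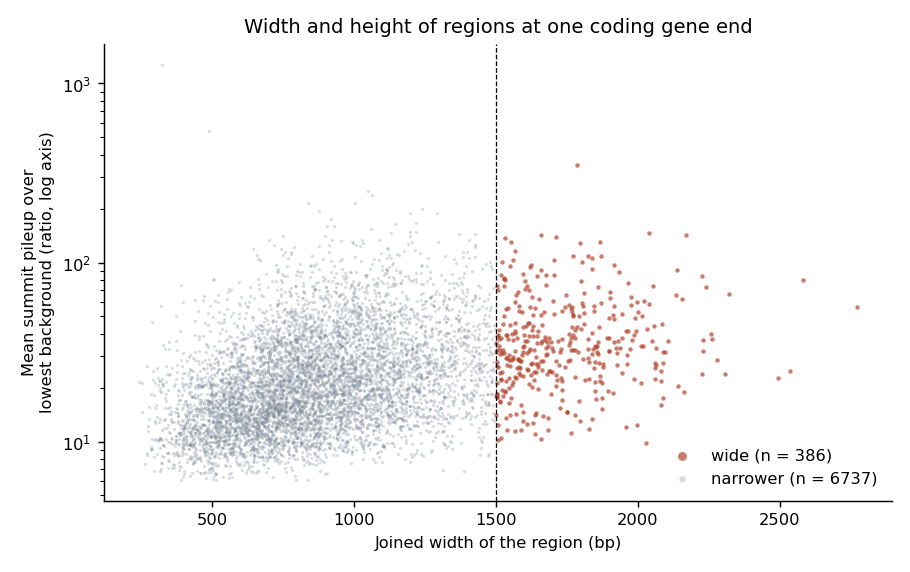
Each point is a reproducible region at 1 coding gene end, with its joined width in bp on the x axis and its mean summit pileup over the library's lowest background on a log y axis. The 386 wide regions lie right of the dashed line at 1500 bp with no gap from the 6737 narrower ones, and their heights overlap.

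Bbc3, which encodes PUMA, a killer protein switched on by p53, had the widest member. It spanned 2770 bp (chr7:16308597-16311366), all of it inside the gene. Library 2 had a single peak of 2664 bp there, while library 1 had 3 short peaks, the widest of 348 bp, and library 3 had 2, the widest of 914 bp. Summit pileups were 60, 86 and 103 fragments in libraries 1, 2 and 3. The fold enrichment, the caller's ratio of summit pileup to local background, was 4.71 ± 0.57 (SD, n = 3). Only 785 bp (28.3%) were covered in all 3 libraries, so the full width rests on library 2.

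Tagln2, an actin-binding protein gene, came next with 2583 bp (chr1:172499898-172502480) and widest single peaks of 1365, 2293 and 1717 bp in libraries 1, 2 and 3. Tpd52l2 followed with 2534 bp (chr2:181495324-181497857) and single peaks of 409, 1889 and 1115 bp. Traf3, an adaptor that restrains the noncanonical NF-kappaB pathway, had 2494 bp (chr12:111164401-111166894) from single peaks of 680, 1153 and 1751 bp. At Tpd52l2 and Traf3, 16.1% and 26.0% of the width was covered in all 3 libraries. The region of Traf3 lay mostly upstream of the gene, and that of Tagln2 mostly inside it. Rcor2, a CoREST corepressor gene, had 2229 bp (chr19:7266902-7269130), with 3, 1 and 2 peaks in the 3 libraries and a widest of 582, 2155 and 1340 bp.

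Hsp90ab1, the gene of the chaperone HSP90 beta, was wide in each library. Its 2321 bp (chr17:45572546-45574866) came from 1 peak per library, of 1813, 1822 and 2250 bp. Ifngr2, a chain of the interferon gamma receptor, had 2240 bp (chr16:91545427-91547666) from single peaks of 1817, 2048 and 2040 bp. Tent5a, which encodes a poly(A) polymerase, had 2308 bp (chr9:85326224-85328531) from 1687, 2167 and 2308 bp. In these 3 genes 70.1%, 81.1% and 72.4% of the width was shared by all libraries. Pileups at Ifngr2 were 75, 94 and 159 fragments, and its fold enrichment was 8.46 ± 0.76. At Tent5a they were 23, 29 and 58, with 5.94 ± 0.58 (SD, n = 3). A wide region was therefore not always a high one.

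The remaining 4 of the 12 widest were Stat6, the signal transducer of interleukin 4 (2277 bp), Dbnl, an actin-binding adaptor gene (2261 bp), B3gnt2, a glycosyltransferase gene (2258 bp), and St3gal4, a sialyltransferase gene (2228 bp). Library 3 alone bridged Stat6 and Dbnl in 1 peak, of 2122 and 2164 bp, where libraries 1 and 2 had 2 peaks each. At St3gal4 the summit pileup was 23 fragments in library 1, against 63 and 59 in libraries 2 and 3.

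**Figure D2:**
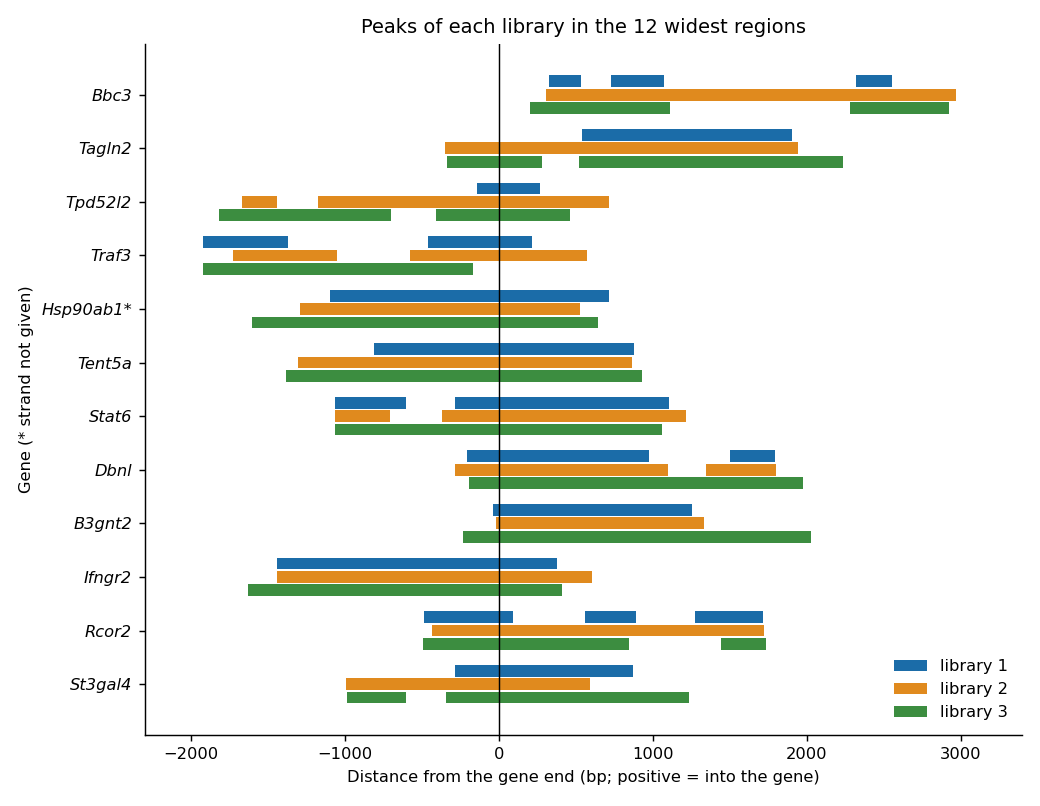
Bars show the peaks of libraries 1, 2 and 3 (rows within each gene, top to bottom) in the 12 widest regions, along the distance in bp from the gene end at the summit, positive into the gene. Ifngr2, Hsp90ab1 and Tent5a have 1 long peak in each library, while Bbc3, Rcor2 and Traf3 are joined from short and long peaks.

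Across all members the width depended on the library. A single peak of 1500 bp or more was present in 54 members (14.0%) in library 1, 165 (42.7%) in library 2 and 216 (56.0%) in library 3. Median widths of a member's widest peak were 950 bp in library 1, 1456 bp in library 2 and 1529 bp in library 3, the same order as their background. The part of depth in this was not tested. Library 1 had more than 1 peak in 162 members (42.0%), library 2 in 49 (12.7%) and library 3 in 72 (18.7%). The median share of a member's width covered in all 3 libraries was 58.7%, close to the 60.8% of narrower regions. In 94 members no library had a single peak of 1500 bp, in 181 only 1 had, in 79 exactly 2 had, and in 32 all 3 had. In 3 members, Vangl2 and Cldn3 among them, no base was covered in all 3 libraries, and the region of Cldn3, a tight junction gene, joined peaks of at most 676, 415 and 760 bp into 1795 bp. Hivep1, a zinc finger factor gene, and the predicted gene Gm51999 had 7 peaks each over the 3 libraries, and Bbc3, Rcor2 and Itgb2, the beta 2 integrin of leukocytes, had 6. Built without library 3 the set had 228 regions, without library 2 it had 260 and without library 1 it had 358. Of the 386 genes, 216, 253 and 347 remained.

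The 32 members with a single wide peak in every library, a choice that makes their widths even, were also higher. Height and width come from the same libraries here, so this is a description. The median pileup of the 32 over the library's lowest background was 61.5, against 39.3, 32.7 and 25.7 for members where 2, 1 and 0 libraries had such a peak. They include Egr1, Skil, an inhibitor of SMAD signalling, Ccnd2, Nfe2l2, the antioxidant response factor NRF2, Tfeb, the lysosome biogenesis factor, and Bhlhe40, a transcriptional repressor. Skil and Tfeb, with Bhlhe40, were picked from the 32 after their values were seen. Skil had the most even width, with single peaks of 2125, 2135 and 2137 bp and pileups of 110, 158 and 114 fragments. Vim, Stmn1 and Ptma, genes of the cytoskeleton or of proliferating cells chosen in the same way, were also among them.

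A library left out of the choice also had longer peaks at the wide regions. Regions were joined from 2 libraries, split at 1500 bp, and measured in the library held out where it had a peak. In library 1 the widest peak had a median of 951 bp at 357 regions wide in the others, against 537 bp at 6770 narrower ones. In library 2 it was 1432 bp at 260 regions against 702 bp at 6863, and in library 3 it was 1555 bp at 228 against 725 bp at 6919. The ratio was 1.77, 2.04 and 2.14, a mean log2 ratio of 0.98 ± 0.14 (SD, n = 3). It was above 1 in 3 of 3 libraries (exact sign-flip permutation test, two-sided, p = 0.25, the smallest p that 3 libraries allow). A single peak of 1500 bp or more was found at 12.6%, 40.4% and 56.6% of the wide regions in held-out libraries 1, 2 and 3, against 0.13%, 1.05% and 1.65% of the narrower ones, with regions that had no peak there counted as not wide.

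Wide regions had taller summits than narrower ones in fragments, while their fold enrichment was close to that of narrower ones. The median summit pileup was 36, 51 and 60 fragments in wide regions of libraries 1, 2 and 3, against 22, 29 and 35 in narrower ones. Over the library's lowest background this was 33.7, 36.3 and 30.8 in wide regions, against 20.6, 20.6 and 18, a log2 difference of 0.77 ± 0.05 (SD, n = 3). The median fold enrichment was 7.40, 7.52 and 6.77 in wide regions, against 7.08, 7.41 and 6.80, a log2 difference of 0.03 ± 0.04, within the spread between libraries. The local background that the caller set against the summit was 3.53, 4.08 and 3.88 times the library's lowest in wide regions, against 1.99, 2.16 and 2.12 times in narrower ones. The local background moved with width in every library, and its part in the fold enrichment was not tested. Strength and width come from the same libraries, so no test was run.

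**Figure D3:**
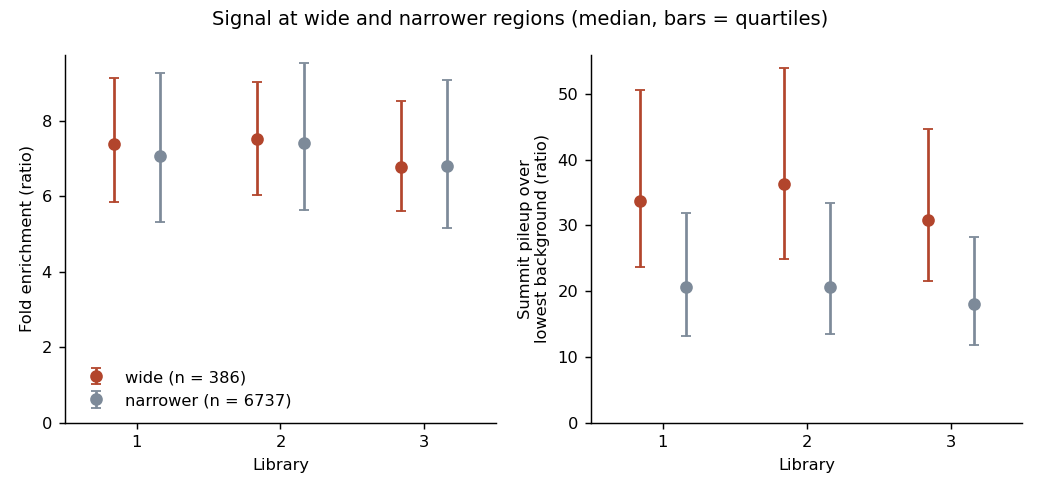
Points are medians and bars the quartiles over regions in libraries 1 to 3, wide regions left and narrower regions right, for fold enrichment (left panel) and summit pileup over the library's lowest background (right panel). Fold enrichment overlaps (7.40 against 7.08 in library 1), while pileup is higher in wide regions of each library.

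Tall regions were not always wide. Of the 6737 narrower regions, 1503 (22.3%) had a mean pileup over background at or above the wide median of 32.9. With the 7123 regions cut into 5 equal classes from the lowest to the highest pileup, 1.05%, 1.76%, 3.79%, 8.57% and 11.9% were wide. With 5 classes by fold enrichment the shares were 3.51%, 6.46%, 5.82%, 7.51% and 3.79%, highest in the fourth class. Spearman's rho across the 7123 regions, which share libraries and are not replicates, was 0.41 between width and pileup and 0.27 between width and fold enrichment. Wide regions at 2 or more coding gene ends, 95 in number, had median fold enrichments of 7.78, 7.45 and 7.15 in libraries 1, 2 and 3. The 485 wide regions at no coding gene end had 6.37, 6.30 and 5.91. Median pileups over background were 36.53, 36.96 and 32.38 at 2 or more ends and 33.72, 34.12 and 29.81 at none. Local backgrounds were 3.997, 4.724 and 4.355 times the library's lowest at 2 or more ends, and 4.19, 4.52 and 4.54 times at none. Taller summits and a raised local background were thus shared by wide regions in general, not particular to those at 1 coding gene end.

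The tallest member was at Kpnb1, which encodes importin beta, a carrier of proteins into the nucleus. Its summit had 399, 545 and 577 fragments in libraries 1, 2 and 3, or 353 ± 49.0 times the lowest background (SD, n = 3), and its width was 1786 bp (chr11:97186950-97188735). No other member passed 147 times. Klf16, a zinc finger factor gene, stood at 147 ± 10.3, the predicted coding gene Gm46294 at 143 ± 18 and Esyt1, a lipid transfer protein gene, at 142 ± 16.2 (SD, n = 3). By fold enrichment Sertad2 led with 14.9, 16.2 and 13.5 in the 3 libraries. Wdr5, a core subunit of the MLL methyltransferase complexes, followed with 12.9, 12.9 and 13.6. Klf16, Esyt1, Mex3b, Ncl and Kpnb1 averaged 12.3 to 12.9, Ptges2 11.8, Zbtb5 11.6 and Pik3r1, the regulatory subunit of PI3 kinase, 11.5. Prkd2, Dazap2, Setd5, Zfp36l2 and Nfe2l2 had pileups of 129 to 139 times the background, and Sertad2 was the tenth highest at 116. The summit at Setd5 also lay within 1 kb of an end of the noncoding Gt(ROSA)26Sor gene.

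Members sat mostly at gene starts. The strand was given for 315 of the 386 genes, and 305 of these (96.8%) had the summit at the annotated start, against 5032 of 5398 (93.2%) of narrower regions. In 287 of the 305 (94.1%) the region spanned the start itself, against 85.9% of narrower ones. The median reach was 573 bp upstream and 1100 bp downstream of the start in wide regions, against 313 and 510 bp in narrower ones. More bases lay downstream than upstream in 69.5% of wide and 69.9% of narrower regions, so both kinds leaned into the gene to a like degree. The summit was 62.0 bp into the gene at the median in wide regions and 61.8 bp in narrower ones. Wide regions held more than 1 annotated start in 23.3% of cases, against 12.6%, and a noncoding gene end within 1 kb of the summit in 77 of 386 (19.9%), against 14.7%. By its length alone, a longer stretch holds more starts, spans a nearby start more often and reaches farther to both sides.

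**Figure D4:**
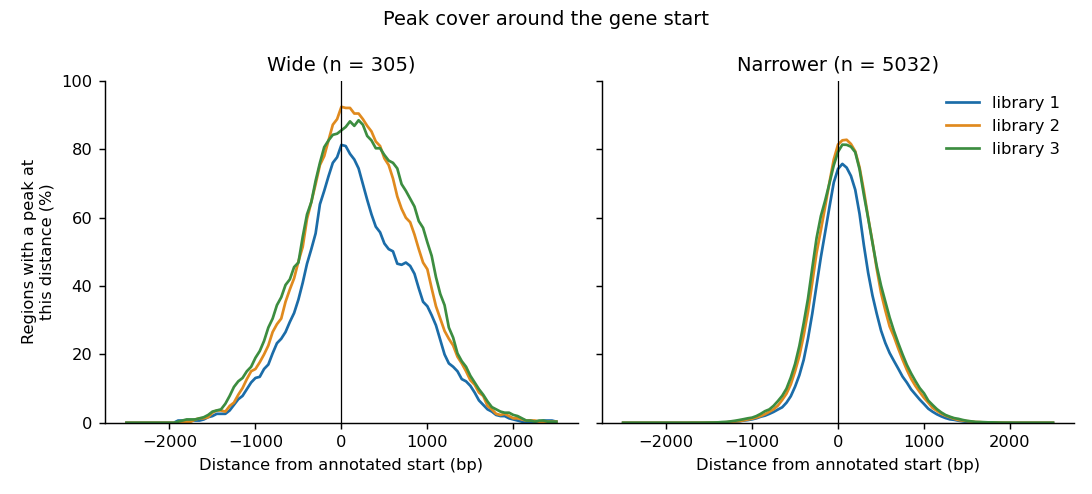
Lines give, for libraries 1 to 3, the percentage of regions at an annotated gene start that have a peak at each distance in bp (negative upstream, positive into the gene), for 305 wide regions (left) and 5032 narrower ones (right). At 1000 bp into the gene 34.1%, 44.9% and 52.8% of wide regions were covered, against 5.48%, 7.29% and 8.62% of narrower ones. Members were chosen by width, so a farther reach is built into the comparison.

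With gene lists pooled into groups, the share of genes with a wide region was higher for regulators and blood cell genes than for the other groups. Those were genes that every cell uses and genes of other tissues, and the contrast did not hold for every single list. Of all 21887 protein-coding genes, 386 (1.76%) had a wide region, and 9374 (42.8%) had the summit of any reproducible region within 1 kb of an end. In 12 lists of regulators and blood cell genes, 27 of 381 genes (7.09%) had a wide region and 65.4% had any. In 6 lists of genes that every cell uses, 5 of 286 (1.75%) had a wide region and 81.8% had any. Of the genes with any region, 10.8% in the regulator lists had a wide one, 2.14% in the lists that every cell uses and 4.12% of all. Any region includes those shared with another coding gene end, which could not be members. In 5 lists of other tissues, 2 of 1283 genes (0.156%) had a wide region and 14 had any, so that 14.3% of the few occupied ones were wide, a higher share than in the regulator lists. Olfactory receptor genes (1106) and keratin genes (105), none with a wide region, made up most of the 1283. Among single lists, splicing factors had 6.06%, stroma and endothelium genes 4.17% and neuronal genes 3.85%. Interferon genes had 3.57%, lymphoid 3.33%, erythroid and megakaryocyte 3.1% and myeloid genes 0%. The lists were chosen with earlier results of these data known, and these are counts without a test. Built without library 3, 18 genes on any list had a wide region, without library 2 it was 19, and with all 3 libraries 34. Single lists moved as well. Without library 2 the 5 stem cell factors became 3, the 4 immediate-early factors 2, the 5 chromatin regulators 3, and the 2 genes of p53, DNA damage and apoptosis 0. Without library 3 the stem cell factors and the chromatin regulators were again 3 each, and the 2 genes of NF-kappaB signalling, 2 of LSK surface and 2 of splicing became 0. Of the 2 cytokine signalling genes, 1 was left without library 1 or library 2.

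**Figure D5:**
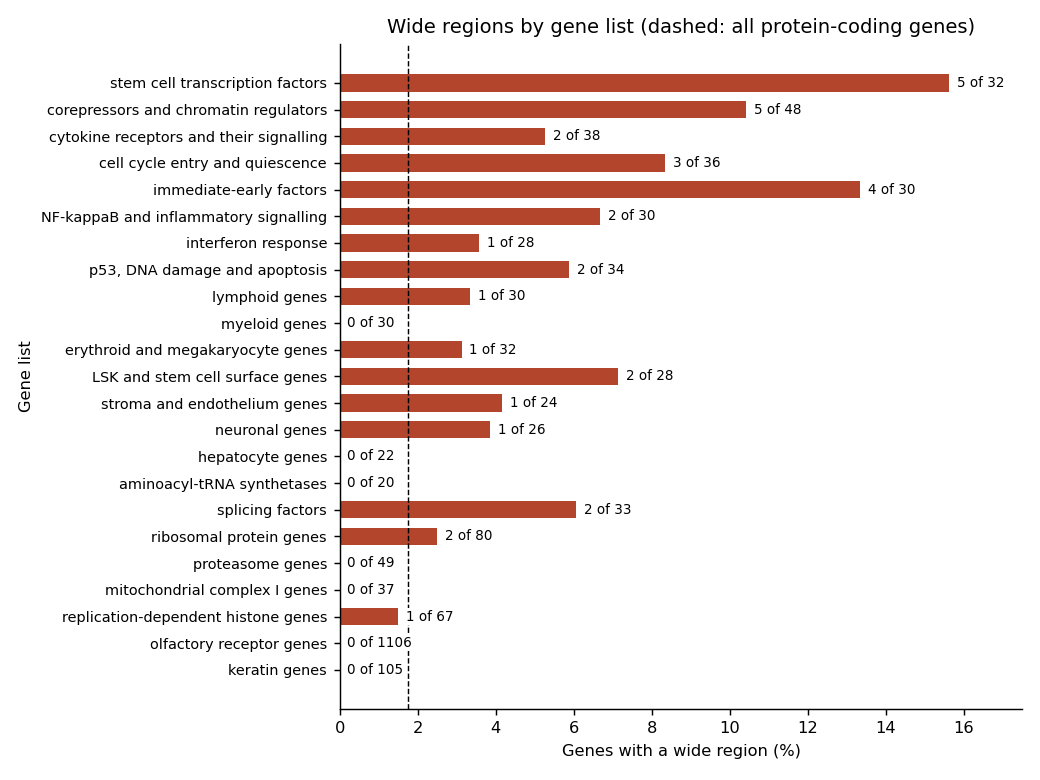
Bars give the percentage of each list's genes that had a wide region, with the counts beside them, and the dashed line marks the 1.76% of all protein-coding genes. Stem cell transcription factors (5 of 32) and immediate-early factors (4 of 30) lie farthest right, and proteasome and complex I genes are at 0.

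Stem cell transcription factors had 5 wide regions among 32 genes (15.6%), and 22 of the 32 had any region. Hhex, a homeobox gene of stem and progenitor cells, had 2135 bp (chr19:37433931-37436065), with pileups of 80, 99 and 101 fragments in libraries 1, 2 and 3. Ikzf1, which encodes Ikaros, a regulator of lymphoid fate, had 2064 bp (chr11:11684368-11686431) and pileups of 20, 44 and 59. Its single wide peak was in library 3 (2064 bp), against 591 and 742 bp in libraries 1 and 2. Egr1, a regulator of stem cell quiescence and an immediate-early gene, had 1838 bp, with single peaks of 1737, 1732 and 1838 bp and pileups of 107, 184 and 172. Gfi1, a repressor that restrains stem cell cycling, had 1596 bp and Cebpa, the myeloid factor, 1575 bp. Egr1 was wide in each library, whereas Gfi1 had no single peak over 1385 bp in any. Their fold enrichments were 6.43 ± 1.16 for Hhex, 6.65 ± 0.64 for Ikzf1, 6.13 ± 0.61 for Egr1, 4.84 ± 0.46 for Gfi1 and 5.81 ± 0.76 for Cebpa (SD, n = 3), all below the median member at 7.28.

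Immediate-early factors, genes that answer a stimulus within minutes, had 4 among 30. Besides Egr1 these were Zfp36l2, which speeds the decay of mRNAs (1866 bp, pileups of 111, 202 and 279 in libraries 1, 2 and 3), Jun, an AP-1 subunit (1595 bp, with 94, 133 and 147), and Dusp2, a phosphatase that switches off MAP kinases (1527 bp, with 82, 122 and 158). Their pileups lay at 81.6 to 130 times the background on average, all above the upper quartile of members at 50.5. At Zfp36l2, Jun and Dusp2 a noncoding gene end also lay within 1 kb of the summit, which leaves 1 of the 4 where such regions are not counted. The list's regions were tall in general. The median of its 24 genes with a region of their own was 67.3 times, against 20.3 over all 6885 such genes. Fold enrichment went the other way, with a median of 6.19 in the 24 genes against 7.18 over all such genes. Among the 4 wide members Egr1, Zfp36l2 and Dusp2 lay below the median member at 7.28, and Jun lay above it at 8.68.

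The lists of cytokine signalling, cell cycle, p53, NF-kappaB and interferon genes held 1 to 3 wide regions each. Socs1, the feedback inhibitor of JAK kinases, had 1902 bp (chr16:10784865-10786766) with pileups of 62, 110 and 103 fragments in libraries 1, 2 and 3. It belongs to the list of cytokine receptors and their signalling, in which 2 of 38 genes had a wide region. Foxo3, a forkhead factor of stem cell quiescence, had 1976 bp, Ccnd2, a G1 cyclin, 1746 bp, and Ccng2, an inhibitory cyclin, 1567 bp, the 3 of 36 cell cycle genes. Foxo3 had pileups of 70, 103 and 104, Ccnd2 63, 112 and 116 and Ccng2 41, 79 and 84 fragments. Ccnd2 had a single peak of 1500 bp or more in each library, and Foxo3 only in library 3 (1895 bp, against 851 and 849 bp in libraries 1 and 2). Bbc3 and Gadd45b, a stress-induced gene with 2095 bp, were the 2 of 34 genes of p53, DNA damage and apoptosis. Traf3 and Rel, an NF-kappaB subunit gene with 1543 bp and a fold enrichment of 10.6 ± 0.38 (SD, n = 3), were the 2 of 30 in NF-kappaB and inflammatory signalling. Ifngr2 was the only 1 of 28 interferon genes matched.

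Corepressors and chromatin regulators had 5 among 48 genes (10.4%), all under 1850 bp. Arid1b, a SWI/SNF subunit gene, had 1813 bp and Ep300, a histone acetyltransferase gene, 1679 bp. Dnmt3b, a DNA methyltransferase gene, had 1519 bp, Ezh2, the Polycomb methyltransferase gene, 1511 bp and Tet1, which oxidises methylcytosine, 1503 bp. Ezh2 had the highest fold enrichment of the 5, 9.85, 9.39 and 11.7 in libraries 1, 2 and 3, and Arid1b the lowest, 6.49, 6.64 and 5.98. The last 3 lie within 20 bp of the threshold, and none of them had a single peak of 1500 bp in any library.

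Of mature blood lineages, 3.33% of lymphoid, 3.1% of erythroid and megakaryocyte and 0% of myeloid genes had a wide region. The share of all protein-coding genes was 1.76%, so these counts lay around it. Any region was present at 10 of 30 lymphoid, 12 of 32 erythroid and megakaryocyte and 11 of 30 myeloid genes. Of 30 lymphoid genes only Foxp1 had a wide region (1545 bp), of 32 erythroid and megakaryocyte genes only Pf4, the platelet factor 4 gene (1642 bp), and of 30 myeloid genes none. Among 28 LSK and stem cell surface genes, Itga4, the alpha 4 integrin of homing (1568 bp), and Alcam, an adhesion molecule gene (1509 bp), had one. Alcam had pileups of 12, 14 and 18 fragments and a longest peak of 1483 bp in library 3, against 274 and 333 bp in libraries 1 and 2. Itga4 had 37, 67 and 81 fragments and peaks of 1379, 1303 and 1568 bp.

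Genes that every cell uses often had a region (81.8%), while 1.75% had a wide one, close to the 1.76% of all protein-coding genes. Any region here includes those shared with another coding gene end, which could not be members. Of the occupied genes, 18 of 58 histone genes and 16 of 30 complex I genes had a region of their own. Of 80 ribosomal protein genes, 65 had any region and 2 a wide one, Rpl7 (1862 bp) and Rps21 (1516 bp). Of 33 splicing factors, 29 had any and 2 (6.06%) a wide one, Srsf6 (1660 bp) and Srsf9 (1627 bp). Of 67 histone genes, 58 had any and 1, H4c11 (1519 bp), a wide one. Proteasome genes had 36 of 49 with any region, complex I genes 30 of 37 and aminoacyl-tRNA synthetases 16 of 20, and 0 with a wide one. Rpl7 was wide in each library (1790, 1567 and 1697 bp), Rps21 in library 2 only. Among their genes with a region of their own, median widths were 768 bp for ribosomal protein, 759 bp for proteasome and 793 bp for complex I genes. They were 687 bp for aminoacyl-tRNA synthetases and 786 bp for histone genes, but 1139 bp for splicing factors. Stem cell transcription factors had 1024 bp, chromatin regulators 1002 bp and all genes 860 bp.

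Of genes of other tissues, Ngfr among 24 stroma and endothelium genes (1639 bp) and Grin1 among 26 neuronal genes (1872 bp) had a wide region. Of 22 hepatocyte, 1106 olfactory receptor and 105 keratin genes none had one. At Ngfr the width came from library 3 (1639 bp, against 291 and 619 bp in libraries 1 and 2), with pileups of 17, 23 and 19 fragments. Grin1, a glutamate receptor gene, had no single peak over 826 bp and, with Cldn3, was 1 of 2 members joined to over 2 times the width of every single peak. Mean pileups over background were 14.0 at Ngfr and 21.2 at Grin1, below the median member at 32.9.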

How the data were processed

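The measured material was genomic DNA from CUT&Tag on 3 libraries of 1 group. The submitters' processing notes name Bowtie2, SAMtools, MACS2 and the mm10 build. Versions, duplicate handling and any control are not given in the sources used here. Per the labels each deposited list belongs to 1 library. The deposited lists give a fold enrichment (a ratio of summit pileup to local background), −log10 p and −log10 q values (p-values and q-values of the caller, lowest −log10 q 1.30 to 1.31) and a score, which was not used, with 0-based positions in other columns. Fold enrichment is the authors' value for each peak.

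Summit pileups and local backgrounds were solved for each peak from 2 deposited values: the fold enrichment, read as a ratio in which 1 is added to pileup and background alike, and the −log10 p, read as a Poisson upper tail. All pileups (100%) were whole numbers to within 0.05. A region's value in a library is its highest peak. Total reads are unknown. The joining, solving and gene end steps were tested on simulated data. Genes came from RefSeq (GRCm38.p6) by outer ends, with strand where the promoter table gave it. No genome sequence or exons were used. The named genes were the 12 widest members, the 10 highest by fold enrichment and by pileup, the 5 with the most peaks, list members, those nearest the threshold, and those joined to over 2 times every single peak. Lists held 23 sets, with histone genes matched through synonyms because the table uses newer symbols. Of the interferon list, 2 names could not be matched. Members, lists and rules were chosen with earlier results of these data known. The exact permutation test used scipy 1.17.1 in Python 3.11.15. Alternatives covered the width, peak threshold, overlap, summit, window and each library left out. Some members are not reported here by name.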

Additional observations from a re-analysis of the deposited data

How the results depend on the processing

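No paired analysis was possible because the 3 libraries form a single group. Total reads are unknown, and the part of depth in the widths was not tested. The number of wide regions, each with its own gene, was 228 to 358 with a library left out, and fell to 47 at a width of 2000 bp, 83 with the mean single peak and 206 with 50% reciprocal overlap. At 1000 bp there were 2353 regions at 2340 genes. The log2 pileup difference stayed above 0 in every alternative run. It was 0.91 to 0.98 with a library left out, 0.82 at 2000 bp, 0.61 at 1000 bp, 1.39 with the mean single peak, 0.63 with −log10 q of 5 or more and 0.84 with reciprocal overlap, and it moved by less than the spread between libraries in the others. The log2 fold enrichment difference had no stable sign. It was 0.075 to 0.124 with a library left out, 0.19 at 1000 bp and 0.11 with the mean single peak, but -0.16 at 2000 bp, -0.070 with −log10 q of 5 or more and -0.067 with the mean over a library's peaks. Over all lists, 34 genes had a wide region, 18 to 31 with a library left out (18 without library 3, 19 without library 2), 6 at 2000 bp, 131 at 1000 bp, 7 with the mean single peak and 15 with reciprocal overlap. The CpG difference of 0.053 stayed above 0 in every alternative run, at 0.023 to 0.054 with a library left out (0.023 without library 3) and 0.0039 with the mean single peak. The causes were not tested. The held-out log2 width ratio of 0.98 was 0.90 to 1.23 in its 5 alternatives. Leaving out members with a noncoding gene end within 1 kb, an alternative chosen after seeing the data, left 309 regions with a pileup difference of 0.76.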

Other observations

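Families picked by symbol after the members had been seen add to the gene groups, as counts without a test, beside the 1.76% of all protein-coding genes. Among SMAD genes, the transducers of TGF-beta and BMP signals, 3 of 8 had a wide region: Smad1, Smad2 and Smad5. Smad5 had single peaks of 1557, 1561 and 1504 bp and pileups of 35, 56 and 68 fragments in libraries 1, 2 and 3. Smad1 was much lower, with pileups of 12, 17 and 19 fragments and a widest peak of 262 bp in library 1. Of 24 SETD, KMT and PRMT genes, which encode mostly histone or protein methyltransferases, 6 had a wide region, among them Setd1a, Kmt2e and Prmt1. GALNT genes, which start O-glycosylation, had 4 of 17, KLF and SP factors 4 of 29, forkhead factors 5 of 44, UBE2 ubiquitin-conjugating enzymes 4 of 31, ZBTB factors 3 of 40, USP proteases 3 of 50 and TRIM genes 3 of 68. Zfp genes, mostly zinc finger factors, had 7 of 394 (1.78%), although 52.5% had any region. Any region was present at 91.7% of SETD, KMT and PRMT, 87.5% of SMAD, 85% of ZBTB and 83.9% of UBE2 genes. The share was 62% for USP, 58.8% for GALNT, 55.2% for KLF and SP, 45.6% for TRIM and 31.8% for forkhead genes. Over all protein-coding genes it was 42.8%.

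At 7 of the 315 genes with a strand the summit lay at the annotated finish: Ltb, Ptpn18, Ctdsp1, Nktr, Dand5, Trip10 and 4933440N22Rik, named after they were counted. Ltb, the lymphotoxin beta gene of 1799 bp, had a region of 1979 bp with pileups of 35, 53 and 79 fragments, which also covered the hairpin of Mir6973a. Hairpins of Mir3091, Mir8112 and Mir7238 lay in the regions of Rps21, Krcc1 and Ankrd10. Another reproducible region lay within 5 kb of 57 wide regions (14.8%), against 19.4% of narrower ones. Joining put more than 1 peak of library 1 into 42.0% of wide and 4.35% of narrower regions. The part of joining in the neighbour shares was not tested.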
